A study of Mus musculus with 6 samples.

Results

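Aquaporins are membrane channels through which water, and for some of them glycerol and other small solutes, passes along an osmotic or concentration gradient. The 10 mouse aquaporin genes described here are Aqp1, Aqp2, Aqp3, Aqp4, Aqp5, Aqp7, Aqp8, Aqp9, Aqp11 and Aqp12. They were taken from the deposited expression table by matching Ensembl identifiers, without their version, to these symbols, and all 10 were found among the 52550 genes listed. Of these 10 genes, 7 reached a mean of 1 TPM over the libraries and were among the 22452 genes that entered the test between stages. TPM is the number of transcripts of a gene after its reads are divided by its length, scaled to the same total in every library. Aqp2, Aqp5 and Aqp12 lay below this limit and were not tested.

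Sequencing was done on RNA of GFP-positive cells that had been sorted out of embryonic livers of Sox9-GFP mice on the CD-1 background, to learn which ion and water transporters are expressed while bile duct lumina form. Each stage, E16.5 and E18.5, had 3 libraries, named replicates A, B and C, and each library came from a pool of 15 livers. The sample labels give embryonic days 16 and 18, and the stages stated in the study's methods are used here. Both stages carried the same reporter, neither was treated, and haematopoietic cells were depleted with magnetic beads before the sort. The sort followed the reporter of the transcription factor SOX9, a marker of the biliary lineage in liver, with no second positive marker. Nothing says that the pools came from separate litters, so p-values measure the spread between these libraries.

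The family falls into 3 groups by what the channels pass. Aqp1, Aqp2, Aqp4, Aqp5 and Aqp8 are counted here as water-selective channels, Aqp3, Aqp7 and Aqp9 as aquaglyceroporins, which also pass glycerol, and Aqp11 and Aqp12 as unorthodox aquaporins, which reside largely inside the cell. In adult liver, AQP1 sits in cholangiocytes and in the endothelium, AQP8 in the canalicular membrane and intracellular vesicles of hepatocytes, and AQP9 in the sinusoidal membrane of hepatocytes, where it takes up glycerol. Secretin raises cAMP in cholangiocytes and moves vesicles with AQP1 to the apical membrane, and water then follows the ions secreted into the bile duct.

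All 10 are protein-coding genes, and their places are given on GRCm38 from the GENCODE vM21 annotation. Aqp1 (ENSMUSG00000004655) spans 55336432 to 55348555 of chromosome 6 (forward strand). Aqp8 (ENSMUSG00000030762) spans 123462291 to 123468004 of chromosome 7 (forward strand), and Aqp11 (ENSMUSG00000042797) on the reverse strand of the same chromosome from 97724006 to 97738289. Aqp7 (chromosome 4 from 41033074 to 41048139) and Aqp3 (41092722 to 41098183) are neighbours on the reverse strand, 44.6 kb apart. Aqp2 (chromosome 15 from 99579055 to 99584547) and Aqp5 (99590782 to 99594829) are likewise neighbours on the forward strand, 6.23 kb apart. Aqp9 spans 71110659 to 71168682 of chromosome 9 (reverse strand) and Aqp12 spans 93006334 to 93012269 of chromosome 1 (forward strand). The exons of the 10 genes shared 0% of their bases with exons of any other annotated gene.

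Aqp8 and Aqp1 were the most abundant aquaporins at both stages and differed in their stage pattern, so the 250 bases before their RefSeq start sites are shown, read 5′ to 3′ on the forward strand of GRCm38.p6 from RefSeq. Capitals mark a match to one of 6 motifs that were searched on both strands. The letters searched were GTTAAT for the half-site of HNF1, ATCAAT for the core of ONECUT factors, ACAAT for the core of SOX factors, GGGCGG for the GC box, TATAAA for the TATA box and CAAAGTCCA for HNF4. The Aqp8 window is chr7:123462044-123462293 and the Aqp1 window is chr6:55336049-55336298.
Aqp8: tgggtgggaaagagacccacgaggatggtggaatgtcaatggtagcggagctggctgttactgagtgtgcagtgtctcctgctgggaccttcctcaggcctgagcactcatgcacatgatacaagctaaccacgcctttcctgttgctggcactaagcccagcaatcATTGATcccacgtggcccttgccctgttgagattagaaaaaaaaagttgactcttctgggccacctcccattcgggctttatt
Aqp1: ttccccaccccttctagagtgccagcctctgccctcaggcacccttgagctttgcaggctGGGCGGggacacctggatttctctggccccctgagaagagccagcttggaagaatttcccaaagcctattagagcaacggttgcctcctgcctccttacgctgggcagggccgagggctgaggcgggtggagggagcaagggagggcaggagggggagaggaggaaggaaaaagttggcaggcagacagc
The Aqp8 window held the ONECUT core, the letters recognised by HNF6 and its relatives in the biliary lineage, on the reverse strand from 83 to 78 bases before the start site. The Aqp1 window held a GC box on the forward strand from 190 to 185 bases before its start site. The windows of Aqp11 and of the first listed of the 2 RefSeq start sites of Aqp9, not shown, were searched in the same way and held no match. The window of the other Aqp9 start site was not examined. Of 32851 mouse promoter windows of the same length, 6.72% held the ONECUT core and 32.7% the GC box. The Aqp1 start site of RefSeq lies upstream of the first base of the gene in GENCODE vM21. These are matches of letters, and binding was not measured.

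The libraries held 12755206 to 25737287 reads that could be recovered from the TPM, and each E18.5 library held fewer than each E16.5 library. Intervals and limits from these reads cover counting error only. Over all genes tested, the median log2 fold change from E16.5 to E18.5 was 0.42 on the log2(TPM + 1) scale, and median-of-ratios scaling, which sets the libraries to a common typical gene, lowered it to 0.02. Values relative to this median are therefore given beside the fold changes. Transcripts of 12 cholangiocyte markers summed to between 990.4 and 2957 TPM at E16.5 and between 8763 and 14824 TPM at E18.5, and 9 of the 12 rose (limma, adjusted p under 0.05), with Spp1 rising by 3.19 and Krt19 by 1.94 on the log2 scale. Transcripts of 12 hepatoblast markers, Alb among them, summed to between 177370 and 225891 TPM at E16.5 and between 41425 and 102191 TPM at E18.5, and 6 of the 12 fell, with log2 fold changes of -2.90 for Afp and -2.23 for Apoa1. The libraries labelled as cholangiocytes thus also held abundant transcripts of hepatoblast genes. Transcripts of 8 megakaryocyte markers summed to between 3293 and 9515 TPM at E16.5 and between 95.4 and 757 TPM at E18.5. In each E16.5 library their sum was above that of the cholangiocyte markers. Of 12 endothelial markers 1 rose (Emcn, 1.10), of 12 mesenchymal markers 3 (Dcn, 1.81, and Lrat, 1.34), of 6 mesothelial markers 6 (Msln, 4.02, and Upk1b, 2.66) and of 10 leukocyte markers 6 (S100a8, 2.34, and S100a9, 2.05). Past the same threshold, 26.0% of all genes tested rose and 5.22% fell. The endothelial and mesenchymal rises did not exceed that share. All 8 megakaryocyte markers fell (Pf4, -4.90, and Ppbp, -4.49), as did 2 of 12 erythroid markers (Gata1, -3.16, and Epor, -1.97), 4 of 10 pancreatic acinar markers tested (Ctrb1, -4.77, and Cpa1, -3.79) and 1 of 6 gut and gallbladder markers tested (Tff3, -1.24). The erythroid list had no common direction, with 5 of its 12 genes higher and 7 lower at E18.5 and a median log2 fold change of -0.29. With median-of-ratios scaling the rises numbered 4 for the cholangiocyte, 0 for the endothelial (1 at an unadjusted p under 0.05), 1 for the mesenchymal, 6 for the mesothelial and 0 for the leukocyte markers (6 at an unadjusted p under 0.05), and the falls 5 for the hepatoblast, 1 for the endothelial, 8 for the megakaryocyte, 2 for the erythroid, 2 for the acinar and 1 for the gut and gallbladder markers. Over all genes tested, 17.2% passed with this scaling, 10.4% with a fall.

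Of the 10 aquaporin genes, Aqp8 and Aqp4 fell between E16.5 and E18.5 past the threshold of an adjusted p under 0.05 (limma, Benjamini-Hochberg adjustment over all genes tested). Of the 7 genes tested, 0 rose, whether by limma with or without adjustment (p under 0.05) or by voom on the recovered reads. Among all genes tested, 31.2% passed this threshold, 26.0% with a rise and 5.22% with a fall. Aqp1, Aqp3, Aqp7, Aqp9 and Aqp11 were tested and did not pass, and with median-of-ratios scaling Aqp7 and Aqp11 also passed, both lower at E18.5. With that scaling 17.2% of all genes tested passed, 10.4% with a fall, and a fall was called for 8.37% with quantile normalization, 6.45% with voom on the recovered reads and 1.88% without a filter on low values. TPM is scaled by gene length, so the levels of the genes can be set side by side. At E16.5 the order of mean TPM was Aqp8, Aqp1, Aqp4, Aqp11, Aqp9, Aqp7, Aqp3 and Aqp12, and the values of neighbours in this order were separate except for Aqp9 and Aqp7 and for Aqp3 and Aqp12. At E18.5 Aqp1 had the highest mean, followed by Aqp8, Aqp4, Aqp11, Aqp9, Aqp7 and Aqp3. The ranges of Aqp1 and Aqp8 overlapped there, as did those of Aqp4 with Aqp11 and of Aqp11 with Aqp9. Within libraries, Aqp1 lay above Aqp8 in 1 of 3 and Aqp4 above Aqp11 in 2 of 3, so neither pair had a fixed order, whereas Aqp11 lay above Aqp9 in 3 of 3, as Aqp9 did above Aqp7 at E16.5.

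**Figure D1:**
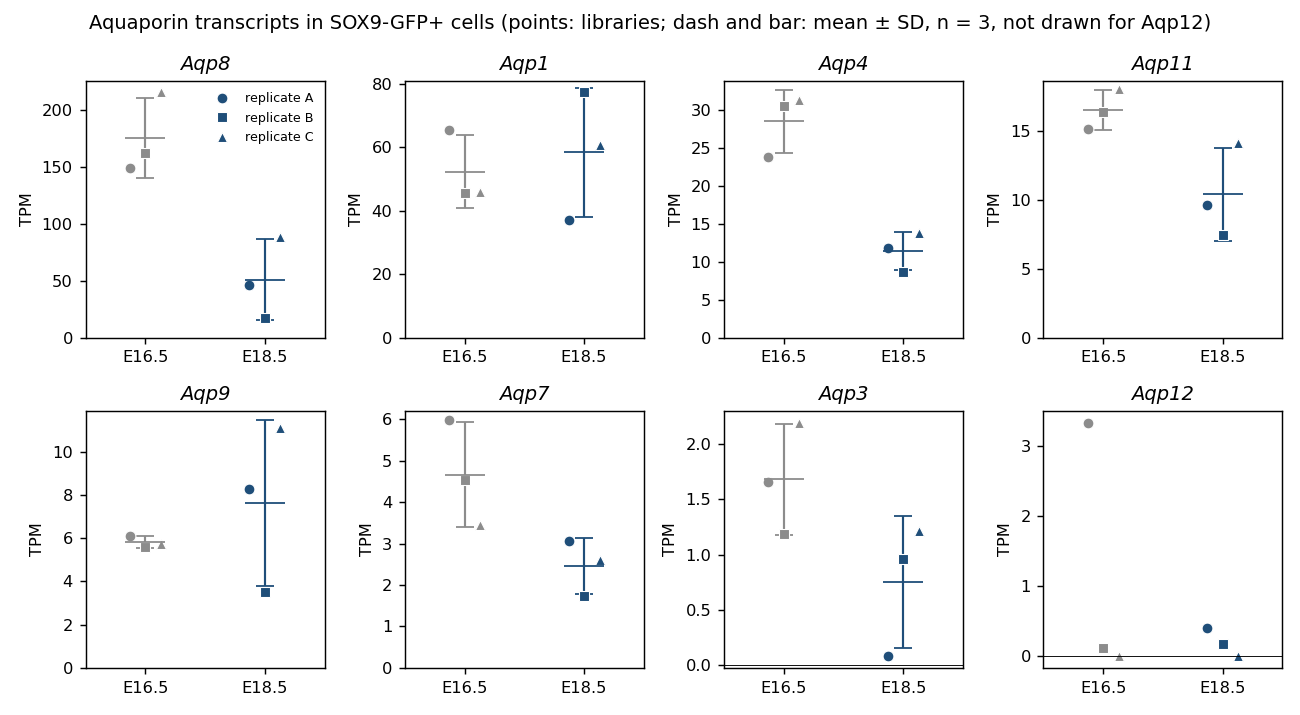
TPM of 8 aquaporin genes in each library at E16.5 (grey) and E18.5 (blue), with the mean ± SD of 3 libraries except for Aqp12, which was listed at 0 in a library of each stage; each panel has its own axis. The stages are separate for Aqp8, Aqp4, Aqp11 and Aqp7, overlap for Aqp1, Aqp9 and Aqp3, and only replicate A of E16.5 stands above 3 reads for Aqp12.

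Aqp8 was the aquaporin with the largest stage difference. In the order A, B, C, the E16.5 libraries had 149, 162 and 215 TPM and the E18.5 libraries 46.2, 17.7 and 88.3 TPM. Every E18.5 library lay below every E16.5 library, and the E18.5 libraries spread 4.99-fold among themselves, against 1.44-fold at E16.5. The lowest value, in replicate B of E18.5, rested on 143 reads and had a 95% exact (Clopper-Pearson) interval of 14.9 to 20.8 TPM, so it stood apart from the other E18.5 libraries by more than counting error. The E16.5 mean was 175 ± 35.1 TPM and the E18.5 mean 50.7 ± 35.5 TPM (SD, n = 3), a 3.45-fold lower level. The log2 fold change was -2.02 (95% interval -3.23 to -0.81, limma adjusted p = 0.0280), or -2.44 relative to the median of all genes, and the exact permutation test on TPM gave the smallest p that 3 libraries against 3 allow (p = 0.1, two-sided). Aqp8 stood above 97.9% of the protein-coding genes listed at E16.5 and above 85.0% at E18.5. In bulk samples, fewer cells of a type and less RNA per cell cannot be told apart. The fall was in the same direction without each library, but its limma adjusted p was 0.0592 without A, 0.0579 without B and 0.0836 without C of E16.5 and 0.0766 without replicate A of E18.5.

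Aqp1 did not differ between the stages beyond the spread of its libraries. The E16.5 libraries had 65.6, 45.6 and 45.9 TPM, and the E18.5 libraries 37.0, 77.5 and 60.9 TPM. The lowest and the highest value both came from E18.5, in replicates A and B, so the stages overlapped throughout. These values rested on 650 to 1478 reads per library. The log2 fold change was 0.11 with a 95% interval of -0.55 to 0.78 (limma adjusted p = 0.766), and it turned to -0.33 with median-of-ratios scaling, -0.17 with quantile normalization and -0.12 without replicate B of E18.5. Relative to the median of all genes it was -0.30. Replicate B of E18.5, in which Aqp1 was highest, was also the library in which Aqp8 and the hepatoblast marker sum were lowest and, among the E18.5 libraries, the one in which the sums of the erythroid (645 TPM against 127 and 168), leukocyte (281 against 124 and 144) and megakaryocyte markers (757 against 95.4 and 222) were highest. At E16.5 the megakaryocyte markers summed to 5715, 3293 and 9515 TPM, each above replicate B of E18.5. The erythroid and leukocyte markers summed there to at most 374 and 71.8 TPM, below it. Replicate B of E18.5 also had the highest cholangiocyte marker sum (14824 TPM, against 12556 and 8763 TPM in A and C). The same held for its mesothelial sum (98.4 TPM against 47.2 and 92.4 TPM). Its endothelial sum of 237 TPM lay between 124 TPM in A and 251 TPM in C of E18.5. Aqp1 per 1000 TPM of the erythroid marker sum was 179.8, 122 and 125 at E16.5 and 291, 120.3 and 362 at E18.5, which overlapped. The part of these cell types in the Aqp1 level was not tested.

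Aqp4, the water channel best known from astrocyte end-feet and also found in basolateral membranes of several epithelia, fell as well. The gene lies on chromosome 18. The E16.5 libraries had 23.8, 30.5 and 31.3 TPM and the E18.5 libraries 11.8, 8.70 and 13.8 TPM, from 226 to 1267 reads. All 3 libraries of E18.5 lay below all 3 of E16.5. The E16.5 mean was 28.5 ± 4.13 TPM and the E18.5 mean 11.4 ± 2.55 TPM (SD, n = 3), a 2.49-fold lower level. The log2 fold change was -1.26 (95% interval -1.73 to -0.78, limma adjusted p = 0.0111), or -1.67 relative to the median of all genes, and it passed the threshold in 15 of 15 alternative settings. Aqp4 stood above 78.4% of protein-coding genes at E16.5 and above 56.5% at E18.5.

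The other water-selective channels were at or near the limit of detection. Aqp2, the vasopressin-regulated channel of the kidney collecting duct, was listed at 0 TPM in all 6 libraries, where 3 reads would correspond to between 0.247 and 0.521 TPM. Aqp5, the apical channel of salivary and other glands, was listed at 0 TPM in 5 libraries and at 0.587 TPM in replicate B of E18.5. The annotation used here did not turn that one value into a whole number of reads, so no interval is given. No difference between stages was detectable for either gene at this depth.

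The aquaglyceroporins were expressed at low levels, and none of the 3 passed the test in limma with the TPM as deposited (at an unadjusted p under 0.05, Aqp7 alone, and by voom 0). Aqp9 had 6.11, 5.57 and 5.75 TPM at E16.5, a 1.10-fold range, and 8.26, 3.49 and 11.1 TPM at E18.5, a 3.18-fold range. The E18.5 values lay on both sides of those at E16.5. The log2 fold change of Aqp9 was 0.23 with a 95% interval of -0.63 to 1.08 (limma adjusted p = 0.646), and it turned to -0.16 with median-of-ratios scaling, -0.20 with quantile normalization and -0.077 without replicate C of E18.5. Relative to the median of all genes the change of Aqp9 was -0.19. Aqp7, which carries glycerol out of adipocytes, had 5.98, 4.53 and 3.46 TPM in the E16.5 and 3.05, 1.73 and 2.61 TPM in the E18.5 libraries, from 25 to 145 reads. The stages of Aqp7 were separate, with E18.5 lower. Its log2 fold change of -0.70 did not pass the threshold (95% interval -1.36 to -0.05, limma adjusted p = 0.0899) and was -1.12 relative to the median of all genes, whereas with median-of-ratios scaling it was -1.04 (limma adjusted p = 0.0384) and with quantile normalization -1.12 (limma adjusted p = 0.0307). Aqp3, a glycerol and water channel of basolateral membranes in kidney and skin, had 1.66, 1.19 and 2.19 TPM in the E16.5 and 0.0799, 0.963 and 1.21 TPM in the E18.5 libraries. It rested on 17 to 32 reads at E16.5 and on 1, 9 and 9 reads at E18.5, and the stages overlapped. The log2 fold change of Aqp3 was -0.66 with a 95% interval of -1.55 to 0.22 (limma adjusted p = 0.202), or -1.08 relative to the median of all genes. At these few reads it moved to -1.95 by voom on the recovered reads (limma adjusted p = 0.104), -1.46 with a pseudocount of 0.1 and -0.35 without replicate A of E18.5, and it passed the threshold in 0 of 14 alternatives (unadjusted limma p of 0.0286 with quantile normalization, 0.0409 by voom and 0.0468 with median-of-ratios scaling).

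Of the unorthodox aquaporins, Aqp11 was present in every library and Aqp12 rested on 1 library. Aqp11, a channel of the endoplasmic reticulum, had 15.2, 16.4 and 18.1 TPM in the E16.5 and 9.64, 7.46 and 14.1 TPM in the E18.5 libraries, from 359 to 1360 reads. The stages were separate, and E18.5 was lower. The mean of Aqp11 was 16.6 ± 1.47 TPM in the E16.5 and 10.4 ± 3.41 TPM in the E18.5 libraries (SD, n = 3), with a log2 fold change of -0.66 that did not pass the threshold (95% interval -1.21 to -0.11, limma adjusted p = 0.0666). It was -1.08 relative to the median of all genes, and it passed with median-of-ratios scaling (-1.08, limma adjusted p = 0.0451), quantile normalization (-1.05, 0.0428), voom on the recovered reads (-0.86, 0.0214) and without replicate C of E18.5 (-0.88, 0.0338). Aqp12, which is known from acinar cells of the pancreas, had 3.32, 0.118 and 0 TPM in the E16.5 and 0.403, 0.180 and 0 TPM in the E18.5 libraries, or 31, 1 and 0 reads and 3, 1 and 0 reads. Replicate A of E16.5 was therefore the one library with more than 3 reads. The 12 acinar markers summed to 2583 TPM in that library, to 248 and 90.2 TPM in the other E16.5 libraries and to between 21.4 and 59.9 TPM at E18.5. Ptf1a and Pnlip, and Prss2 in replicate C of E18.5, were listed at 0 in at least 1 library. The part of acinar transcripts in the Aqp12 value was not tested.

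**Figure D2:**
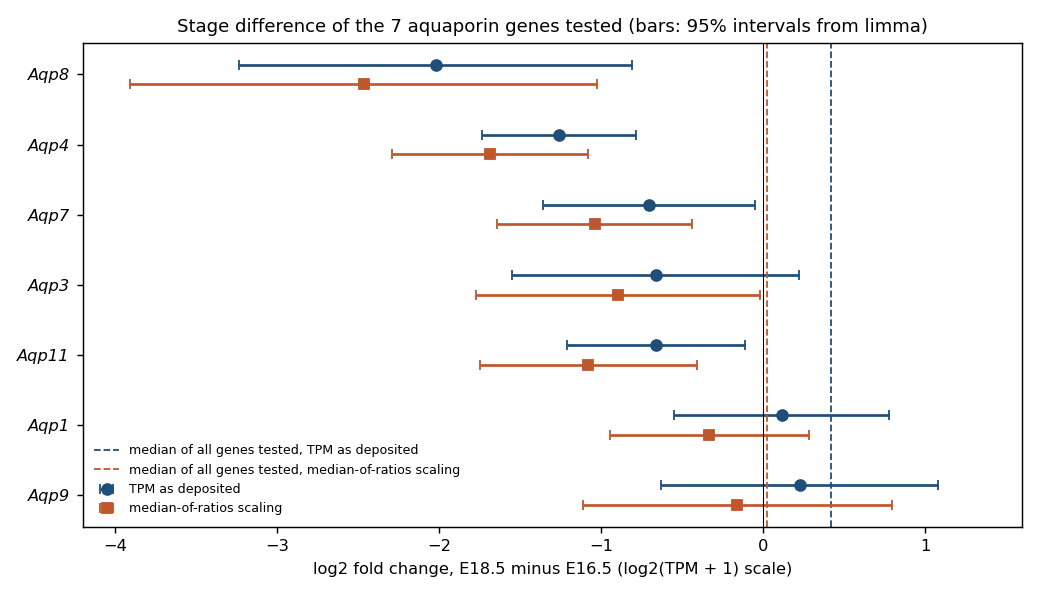
Log2 fold change from E16.5 to E18.5 of the 7 aquaporin genes tested, on the log2(TPM + 1) scale, with 95% intervals from limma, for the TPM as deposited (blue circles) and after median-of-ratios scaling (orange squares); dashed lines mark the median of all genes tested. Aqp8 (-2.02) and Aqp4 (-1.26) lie lowest, and Aqp1 and Aqp9 change sign between the scalings.

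The stages were separate for 4 of the 7 genes tested, Aqp4, Aqp7, Aqp8 and Aqp11, with the lower values at E18.5 each time. They were not separate for the untested Aqp2, Aqp5 and Aqp12. Among all genes tested, the TPM of the stages did not overlap for 53.3%, and for 8.3% with the lower values at E18.5. Summed over the 10 genes, aquaporin transcripts came to 270.5, 266 and 322 TPM at E16.5 and to 116, 118 and 192 TPM at E18.5. The mean sum was 286 ± 31.0 TPM in the E16.5 and 142 ± 43.1 TPM in the E18.5 libraries (SD, n = 3), a 2.01-fold lower level at which the stages were separate (exact permutation p = 0.1). Without Aqp8 the sum was 122, 104 and 107 TPM at E16.5 and 70.3, 101 and 104 TPM at E18.5, a 1.21-fold lower mean with the stages next to each other. Most of the lower sum was thus in Aqp8.

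The make-up of the aquaporin transcripts within a library does not depend on the scaling between libraries. Aqp8 made up 55.0%, 60.9% and 66.8% of the summed aquaporin TPM at E16.5 and 39.7%, 14.95% and 46.0% at E18.5. Aqp1 made up 24.3%, 17.2% and 14.3% at E16.5 and 31.8%, 65.5% and 31.7% at E18.5. The stages were separate for both genes, with Aqp8 lower by 27.4 percentage points and Aqp1 higher by 24.4 percentage points at E18.5 (exact permutation p = 0.1 each, the smallest possible). Without replicate B of E18.5, in which Aqp1 held the larger share, the difference was 18.1 percentage points lower for Aqp8 and 13.2 higher for Aqp1. In shares of the sum without Aqp8, Aqp1 was higher by 15.8 percentage points on average, but the stages overlapped. Aqp1 held 65.6 of 122 TPM of that sum in replicate A of E16.5 and 37.0 of 70.3 TPM in replicate A of E18.5. Aqp9 made up 2.05 ± 0.239% at E16.5 and 5.28 ± 2.11% at E18.5, and Aqp11 5.80 ± 0.317% and 7.31 ± 0.987% (SD, n = 3, exact permutation p = 0.1 for each). The share of Aqp4 was 9.99 ± 1.37% at E16.5 and 8.22 ± 1.67% at E18.5 and overlapped between the stages. Grouped by what they pass, the aquaglyceroporins made up 5.08%, 4.25% and 3.54% at E16.5 and 9.77%, 5.23% and 7.78% at E18.5, again separate (exact permutation p = 0.1). Their summed TPM did not show this, with 13.7, 11.3 and 11.4 TPM at E16.5 and 11.4, 6.19 and 14.9 TPM at E18.5 (exact permutation p = 0.8), since a lower Aqp8 raises the shares of the other genes. At the same time the water-selective channels made up 89.5 ± 1.38% and 84.9 ± 3.36% of the summed aquaporin TPM (SD, n = 3, exact permutation p = 0.2).

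**Figure D3:**
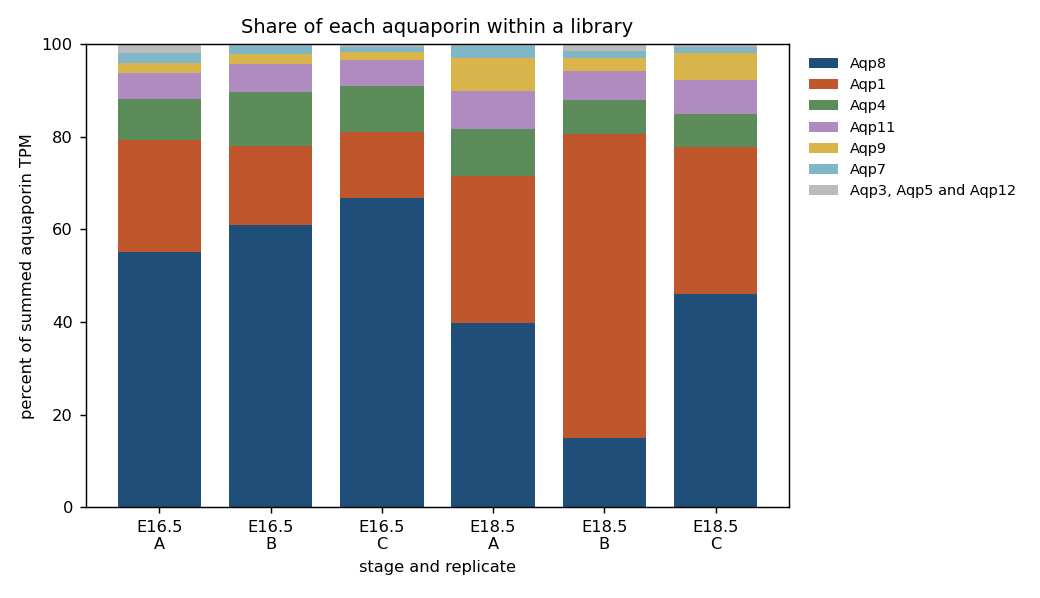
Share of each aquaporin gene in the summed aquaporin TPM of a library, in percent, for replicates A, B and C of E16.5 and E18.5; Aqp2 was at 0 throughout. Aqp8 takes 55.0% to 66.8% of each E16.5 library and 14.95% to 46.0% of each E18.5 library, and Aqp1 takes the largest share in replicate B of E18.5.

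Ratios between pairs of members were compared over the same libraries, 12 ratios in all. Aqp8 per Aqp1 was 2.27, 3.54 and 4.69 at E16.5 and 1.25, 0.228 and 1.45 at E18.5. Aqp8 per Aqp9 was 24.4, 29.0 and 37.4 at E16.5 and 5.60, 5.06 and 7.95 at E18.5. Both ratios were lower in every E18.5 library, by 2.17 and 2.29 on the log2 scale, and the second varied less among the libraries of E18.5. Aqp4 per Aqp11 was 1.56, 1.86 and 1.73 at E16.5 and 1.23, 1.17 and 0.973 at E18.5. The stages were separate for this ratio too, so Aqp4 was lower at E18.5 by 0.62 on the log2 scale more than Aqp11 was. The ratios of Aqp8 to Aqp11, of Aqp4 to Aqp1 and of Aqp4, Aqp7 and Aqp11 to Aqp9 were separate as well, with log2 differences of -1.34, -1.45, -1.57, -1.16 and -0.95. Those of Aqp8 to Aqp4 and of Aqp7, Aqp9 and Aqp11 to Aqp1 overlapped. Each separate ratio had an exact permutation p of 0.1, which Benjamini-Hochberg adjustment over the 12 ratios raised to 0.15.

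Aqp8, Aqp9 and Aqp11 are known from hepatocytes, and 6 of the 12 hepatoblast markers fell as well, so these genes, with Aqp4 and Aqp7, were set against the hepatoblast markers of the same library, and Aqp1 against the endothelial markers. These pairings were made with the values known and are descriptions. Aqp8 per 1000 TPM of the hepatoblast marker sum was 0.839, 0.868 and 0.952 at E16.5 and 0.544, 0.427 and 0.864 at E18.5. The stages overlapped in replicate C of E18.5. Alb alone gave 117854 of the 177370 TPM of the hepatoblast sum in replicate A of E16.5. In replicate A of E18.5 it gave 60258 of 85029 TPM, so values per 1000 TPM of this sum follow Alb most. Against the mean log2 TPM of the same 12 markers, in which each marker counts alike, Aqp8 was 0.98 lower at E18.5 on the log2 scale and the stages were separate. Aqp4 per 1000 TPM of the sum was 0.134, 0.164 and 0.138 at E16.5 and 0.139, 0.210 and 0.135 at E18.5, and it overlapped by both measures, with a log2 difference of -0.26 against the mean log2 TPM. The stages of Aqp4, which were separate in TPM, were thus not separate on this scale. Aqp7 overlapped by both measures as well, with a log2 difference of 0.15.
Aqp9 per 1000 TPM of the hepatoblast marker sum was 0.0344, 0.0299 and 0.0255 at E16.5 and 0.0971, 0.0844 and 0.109 at E18.5. It was higher in every E18.5 library, and so it was against the mean log2 TPM, by 1.31. The E18.5 libraries, which spread 3.18-fold in the TPM of Aqp9, lay close together on this scale. Aqp11 per 1000 TPM was 0.0856, 0.0880 and 0.0801 at E16.5 and 0.113, 0.180 and 0.138 at E18.5, again separate, but the stages overlapped against the mean log2 TPM (0.36). Aqp1 per 1000 TPM of the endothelial marker sum was 312, 354 and 313 at E16.5 and 298, 327 and 243 at E18.5, which overlapped, while against the mean log2 TPM of these markers it was 0.40 lower at E18.5 with the stages separate. The endothelial markers summed to between 129 and 211 TPM at E16.5 and between 124 and 251 TPM at E18.5, with none at 0 in any library. Aqp1 per 1000 TPM of the cholangiocyte marker sum was 27.2, 15.4 and 46.3 at E16.5 and 2.95, 5.23 and 6.95 at E18.5, lower in every E18.5 library. Spp1 alone gave 10012 of the 12556 TPM of that sum in replicate A of E18.5. Of the 12 cholangiocyte markers, 9 rose with the TPM as deposited and 4 with median-of-ratios scaling. Aqp1 did not pass the test in either direction with either scaling. The part of each cell type in these values was not tested.

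**Figure D4:**
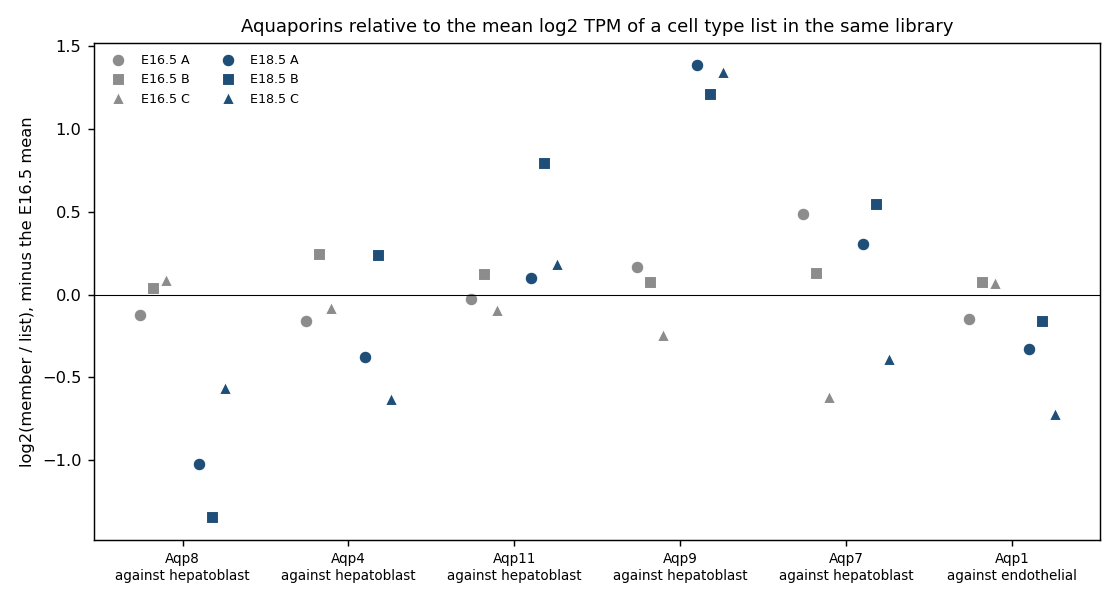
Log2 of each aquaporin relative to the mean log2 TPM of the hepatoblast or endothelial markers of the same library, set to 0 at the mean of the E16.5 libraries (grey: E16.5, blue: E18.5; symbols: replicates). Aqp8 lies lower (0.98) and Aqp9 higher (1.31) in all E18.5 libraries, Aqp4, Aqp11 and Aqp7 overlap, and Aqp1 lies 0.40 lower than at E16.5 relative to endothelial markers.

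The genes whose log2(TPM + 1) followed a member most closely over the 6 libraries were sought among the 11383 protein-coding genes whose mean reached 5 TPM. The points share library, depth and cell make-up, so Pearson's r is given as a description. The nearest to Aqp8 were Cldn14, a claudin of tight junctions (r = 0.998), F10, coagulation factor X (0.998), and Agxt2, an aminotransferase (0.998). The nearest to Aqp4 were Car14, a carbonic anhydrase (0.995), Pcbd1, a cofactor of HNF1 (0.991), and Suclg1, a subunit of succinyl-CoA ligase (0.991). For both genes many others were nearly as close, with r of at least 0.9 for 440 genes with Aqp8 and 446 with Aqp4. Aqp1 had 39 such genes, led by Slc1a5, a neutral amino acid transporter (0.990), Kank3 (0.990) and Gpr182, a receptor of endothelial cells (0.984). Aqp9 had 54, led by Adh1, an alcohol dehydrogenase (0.988), Fetub, a plasma protein made by the liver (0.976), and Sfxn5 (0.972). Aqp11 had 382, among them Fabp5 (0.996) and Nr1h3, the nuclear receptor LXR alpha (0.996). Aqp8, Aqp4 and Aqp11, whose stages were separate, thus had far more close neighbours than Aqp1 and Aqp9, whose stages overlapped. Aqp7, also separate, had 50. Genes that differ between the stages in the same direction correlate for that reason, so these counts are not evidence apart from the stage differences. At low counts, Aqp7 was followed by Ccdc107 (0.995), Bcar3 (0.987) and Slc39a11 (0.9752), Aqp3 by Nav1 (0.987), Sod2 (0.985) and Spn (0.984), and Aqp12 by Spryd3 (0.990), Ndufv2 (0.967) and Cela3b, a pancreatic elastase (0.966).

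The genes that work beside the aquaporins are given by their counts, next to the 26.0% of all genes that rose and the 5.22% that fell. Of 14 genes of ductal ion transport, whose products create the osmotic gradient that water follows, 12 were tested, 6 rose and 0 fell (1 at an unadjusted p under 0.05 and 1 by voom), and the median of their log2 fold changes was 0.88. Ano1, a calcium-activated chloride channel, rose by 1.83 on the log2 scale (limma adjusted p = 0.0157). Neither Aqp1 nor Aqp8 rose beside these genes. With median-of-ratios scaling 5 of these genes rose and 2 fell. Of 15 genes of cAMP-regulated membrane insertion, the route by which secretin brings AQP1 to the apical membrane, 14 were tested, 4 rose and 3 fell. Sctr, the secretin receptor, was at 6.38, 8.09 and 2.31 TPM at E16.5 and at 51.7, 45.7 and 41.6 TPM at E18.5, a log2 rise of 2.96 (limma adjusted p = 0.00822). Every E18.5 library was far above every E16.5 library. Ezr, which links membrane proteins to the apical actin cortex, rose by 1.22, while Gcgr, the glucagon receptor of hepatocytes, fell by 1.44 and Adcy9, an adenylyl cyclase, by 0.94. With median-of-ratios scaling 3 rose and 6 fell. Of 12 genes of glycerol handling, which supply or use what the aquaglyceroporins carry, 3 rose and 0 fell (3 at an unadjusted p under 0.05 and 3 by voom), with a median of 0.07. G6pc, the last enzyme of glucose production, had 4.40, 6.43 and 8.36 TPM at E16.5 and 108, 36.2 and 103 TPM at E18.5, a log2 rise of 3.38 (limma adjusted p = 0.00852). Mgll, which releases glycerol from monoglycerides, rose by 1.08. With median-of-ratios scaling 1 of these genes rose.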

How the data were processed

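Total RNA from GFP-positive cells of Sox9-GFP CD-1 embryos was sequenced with a stranded kit, with 3 libraries at each stage, each from a pool of 15 livers. The authors used FastQC 0.11.7 for read quality, Trimmomatic for trimming and HISAT2 2.1.0 for alignment to GRCm38, then used HTSeq-count 0.5.4p3 with GENCODE vM15 for gene counts and turned these into TPM. The TPM as deposited were used for all results; 0 columns were left out. The aligner options and the strand setting of the counting are not given in the sources used here.

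Genes were named from GENCODE vM21 of the same build, which held 52403 of the 52550 identifiers when the version is ignored (49035 with the same version, 147 without a match). To recover reads, each TPM was multiplied by the exon length in vM21 and divided by the worth of a single read in that library. The values were whole, within 0.01, for 100% of 180057 nonzero values of genes with the same version, and reads were recovered for 49055 genes. For Aqp4, a length of 5082 bp, not the 6233 bp of vM21, gave whole reads. Depth, 95% exact intervals (Clopper-Pearson), the limit of 3 reads and the voom alternative rest on these reads.

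E18.5 was set against E16.5 in limma 3.58.1 (R 4.3.3, eBayes with trend) on log2(TPM + 1) for genes whose mean reached 1 TPM, with a threshold of 0.05 after Benjamini-Hochberg adjustment. Fold changes on this scale understate the change of low genes. Exact permutation tests over all 20 splits were two-sided (scipy 1.17.1), with 0.1 as the smallest p. On simulated data for the comparison of the stages, with 20760 genes tested, the fit called 99% of the genes with a 4-fold and 27% of those with a 2-fold change, log2 fold changes had a median error of 0.15, and there were 15 false calls. The simulation gave every gene the same dispersion, only raised the changed genes, took these above a minimum of reads, and held no shift in cell make-up. These rates hold for such settings and do not give the power for the libraries studied here.

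The members and gene lists were chosen with earlier results of these data known, so no test over a list was made. The lists were markers of cholangiocytes, hepatoblasts, erythroid cells, endothelium, mesenchyme, mesothelium, leukocytes, megakaryocytes, pancreatic acini, and gut and gallbladder, genes of ductal ion transport, glycerol handling and cAMP-regulated membrane insertion, and aquaporin relatives outside the 10. Genes named are the 10 members, the relatives, of each list the 2 largest rises and 2 largest falls past the threshold, and for each member whose mean reached 1 TPM in a stage the 3 most correlated protein-coding genes; Alb, Ptf1a, Pnlip and Prss2 were named after their values were seen. A few genes that this rule names are not reported here. Alternatives were another pseudocount (0.1), no filter, a minimum mean of 5 TPM, quantile normalization, median-of-ratios scaling, other eBayes settings, the replicate letter as a block, voom and leaving out each library. The promoter windows came from RefSeq.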

Additional observations from a re-analysis of the deposited data

How the results depend on the processing

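The replicate letters were not taken to pair the libraries: deviations from the stage means correlated between same-lettered libraries by -0.042 (A), 0.081 (B) and 0.14 (C), and replicate A of E16.5 was closest to replicate B of E18.5 (0.084). With the letter as a replicate block, 2 aquaporin genes and 7314 of all genes passed the threshold, against 2 and 7000 without it. The number of aquaporin genes past the threshold was 1 without a filter on low values, 4 with quantile normalization and 4 with median-of-ratios scaling, and between 1 and 3 when 1 library was left out. Over all genes the number was 4282 without the filter (43310 genes tested), 3796 with quantile normalization and 3862 with median-of-ratios scaling, and between 1148 (without replicate A of E18.5) and 5432 when 1 library was left out. The share of rises among all genes past the threshold was 83.3% with the TPM as deposited, 39.5% with median-of-ratios scaling and 50.5% with quantile normalization. The sign turned for Aqp1 with quantile normalization (-0.17), median-of-ratios scaling (-0.33), voom on the recovered reads (-0.038) and without replicate B of E18.5 (-0.12; -0.12 to 0.41 over the libraries left out), and for Aqp9 with quantile normalization (-0.20), median-of-ratios scaling (-0.16) and without replicate C of E18.5 (-0.077; -0.077 to 0.64). Aqp4 passed the threshold in 15 of 15 alternatives, with log2 fold changes from -1.68 to -1.09 and limma adjusted p from 0.00422 to 0.0488. Aqp8 passed in 10 of 15, with log2 fold changes from -2.55 to -1.42 and adjusted p from 0.00913 to 0.0836, and missed it without a filter (0.0538) as well as without the libraries named in the report. The cause of these changes was not tested. The E18.5 libraries are the shallower ones, so low members such as Aqp3 and Aqp12 are least precise there.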

Other observations

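Outside the 10 genes, 3 relatives were listed. Mip, the water channel of the eye lens, was at 0 to 0.345 TPM (0 to 4 reads), and Aqp6, a channel of kidney intercalated cells, at 0 to 0.478 TPM (0 to 4 reads), both close to the limit of 3 reads. The pseudogene Aqp10-ps had 1.15, 4.83 and 0.821 TPM at E16.5 and 8.85, 9.29 and 4.84 TPM at E18.5, from 4 to 37 reads. Its highest E16.5 value and its lowest E18.5 value nearly met. The log2 fold change of Aqp10-ps was 1.57 (limma adjusted p = 0.0462), and 1.23 with median-of-ratios scaling, at which it did not pass the threshold (limma adjusted p = 0.129).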
